A study of Rattus norvegicus with 23 samples.

Results

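The genes described here make fatty acids and triglycerides in the liver. They are 32 genes listed by symbol, of which 30 had a row in the count table and 27 passed the filter on low counts and were tested, of 15079 genes tested and 28913 rows in all. The list holds enzymes of precursor supply, fatty acid synthesis, NADPH supply, elongation, desaturation and glycerolipid synthesis together with their regulators. Pgd and Mlxipl had no row under those symbols, so their expression is not analysed here. Elovl3, Elovl6 and Mogat2 had a row and did not pass the filter.

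The study modelled portosinusoidal vascular disease, in which small hepatic vessels are affected, in Sprague Dawley rats, and RNA of whole liver was sequenced as 23 libraries. Selfox rats (10 libraries) ate a selenium-enriched diet for 8 weeks and had 8 weekly intravenous injections of oxaliplatin (3 mg/kg), the fluoropyrimidine 5-FU (25 mg/kg) and folinic acid, a folate (45 mg/kg). LPS rats (7 libraries) had a catheter placed surgically toward the portal vein and were given bacterial lipopolysaccharide at 1 mg/kg 2 times per week for 8 weeks. Control rats (6 libraries) were untreated. No label gives surgery or a special diet for Control, so diet and drugs in Selfox, and surgery and lipopolysaccharide in LPS, cannot be told apart. Age, sex, feeding state and hour of collection are not given in the labels. Nor do the labels say that each library is a different rat, so p-values measure the spread between libraries, which may in part be technical.

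Hepatocytes turn surplus carbohydrate into fat. Citrate leaves the mitochondrion and is split to cytosolic acetyl-CoA, which acetyl-CoA carboxylase and fatty acid synthase build into palmitate with reducing power from NADPH. Elongases and desaturases reshape the chain, and acyltransferases, lipins and diacylglycerol acyltransferases attach fatty acids to glycerol to give triglyceride. The transcription factor SREBP-1c, encoded by Srebf1, drives most of these steps in the fed state, when insulin is high, and their messenger RNAs rise and fall with feeding over the day.

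Promoters of 4 of the genes come first. They are RefSeq sequences of rat assembly GRCr8, the 250 bases before the annotated start, with the 5′ end first. The 3 genes of precursor supply Acly, Acss2 and Slc25a1 are shown because they were higher together in both models, and Scd because its log2 fold change between Selfox and Control was the largest of the 27. Capitals mark the CCAAT box (CCAAT, or ATTGG on the other strand) and the GC box (GGGCGG, or CCGCCC on the other strand), neither of which overlapped another match in these 4 windows.
Acly, chr10:85963632-85963881, minus strand: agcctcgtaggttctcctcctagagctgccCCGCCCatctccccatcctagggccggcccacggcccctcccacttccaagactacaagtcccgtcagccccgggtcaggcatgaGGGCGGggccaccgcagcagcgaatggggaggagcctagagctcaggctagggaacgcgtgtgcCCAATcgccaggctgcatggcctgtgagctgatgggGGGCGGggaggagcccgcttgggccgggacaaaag
Acss2, chr3:164464453-164464702, plus strand: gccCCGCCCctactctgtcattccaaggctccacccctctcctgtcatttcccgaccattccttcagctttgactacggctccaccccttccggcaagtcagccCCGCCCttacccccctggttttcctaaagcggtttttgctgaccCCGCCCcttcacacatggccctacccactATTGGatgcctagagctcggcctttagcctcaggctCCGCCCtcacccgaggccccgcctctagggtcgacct
Slc25a1, chr11:96559804-96560053, plus strand: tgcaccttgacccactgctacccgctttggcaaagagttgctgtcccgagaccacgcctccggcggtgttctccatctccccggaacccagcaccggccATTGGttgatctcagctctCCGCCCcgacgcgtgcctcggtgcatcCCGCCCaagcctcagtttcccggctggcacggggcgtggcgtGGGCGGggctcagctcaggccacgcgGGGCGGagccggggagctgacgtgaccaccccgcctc
Scd, chr1:253231732-253231981, minus strand: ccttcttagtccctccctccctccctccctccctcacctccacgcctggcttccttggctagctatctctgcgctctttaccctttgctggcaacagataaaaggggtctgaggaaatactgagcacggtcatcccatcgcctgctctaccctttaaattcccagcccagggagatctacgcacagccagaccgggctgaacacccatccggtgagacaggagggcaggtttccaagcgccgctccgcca
Acly held 1 CCAAT box and 3 GC boxes, Acss2 and Slc25a1 held 1 CCAAT box and 4 GC boxes each, and Scd held 0 of either. Windows were found for 25 of the 32 genes, Pgd and Mlxipl among them, and none for Fasn, Acaca, Elovl6, Gpat4, Dgat1, Dgat2 and Mogat2. The CCAAT box was present in 14 of the 25 (56%), against 34.0% of all 33469 windows of this length, and the GC box in 13 of 25 (52%), against 30.5%. These 33469 windows were not limited to genes tested in these livers, and the 25 were not set against windows of expressed genes alone. Letters of a sterol regulatory element (TCACNCCAC on either strand) stood in 0 of 25 windows, against 0.974% of all, and those of an E-box (CACGTG) in 1 of 25, Elovl5, against 5.59%. A match describes letters and not a bound site, and the lack of one says only that these letters are not in this window.

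Several libraries stood apart. Among the controls, Control 55 was the highest for 16 of the 27 tested genes. The clock genes Dbp and Arntl peak at opposite times of day, and Dbp was above Arntl in 5 libraries: Selfox 8, by a margin of 0.0042 in log2 CPM, then LPS 5 to LPS 7 and Control 55. They are called late-clock libraries, and results are given with and without them. In log2 CPM relative to the Control median, the median of 9 fasting genes was -0.48 in the late-clock Selfox library, -0.64 to -0.19 in the 3 of LPS and -0.51 in Control 55, against -0.059 to 0.58, 0.11 to 0.26 and -0.090 to 0.19 in the other libraries of Selfox, LPS and Control. Total counts were 65.1 to 74.8 M (mega) in Selfox, 70.4 to 79.2 M in LPS and 31.9 to 53.8 M in Control, so the controls were sequenced less deeply.

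Albumin took 7.74 to 11.1% of the counts in Selfox, 6.76 to 12.8% in LPS and 11.7 to 16.4% in Control. Lipogenic genes are also expressed by fat cells, whose defining markers were near 0 in all 23 libraries: Adipoq reached at most 0.109 CPM, Retn 0.0843 CPM and Plin1 0.0513 CPM, and Lep had 0 counts. Kupffer cell markers moved with the Selfox group, where 8 of 8 tested fell. Their summed level was 236 to 369 CPM in Selfox, 579 to 869 CPM in LPS and 671 to 912 CPM in Control. Relative to Control, hepatocyte markers gave 3 higher and 4 lower calls of 10 in Selfox and 1 higher in LPS. In Selfox 1 of 6 endothelial, 3 of 7 stellate, 2 of 6 cholangiocyte and 3 of 8 lymphocyte and neutrophil markers were higher and 4 of those 8 lower, and in LPS 1 of 6 endothelial and 3 of 6 cholangiocyte markers were higher. Of the adipocyte markers that passed the filter, Fabp4 and Cfd, which other cells also express, Cfd fell in Selfox. The part of these cells in the results below was not tested, and in bulk tissue fewer cells of a type and less RNA per cell cannot be told apart.

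Most lipogenic genes stood higher in both models than in Control, and most genes of precursor supply, fatty acid synthesis and desaturation rose. Glycerolipid synthesis gave rises and falls, and of 3 elongase genes 1 fell in both models. Srebf1 rose in both models and Me1 in Selfox. In Selfox 16 of the 27 genes rose and 4 fell relative to Control (edgeR's quasi-likelihood test, Benjamini-Hochberg adjusted p below 0.05), where 14.2% of all genes tested rose and 14.9% fell. In LPS 14 rose and 3 fell, against backgrounds of 7.71% and 6.99%. Between Selfox and LPS, 3 genes were higher in Selfox and 0 lower by edgeR (0 also by DESeq2 and limma, and 2, Aacs and Mid1ip1, at an unadjusted p under 0.05), where 6.86% of all genes were higher and 7.64% lower. The median log2 fold change of the 27 was 0.82 in Selfox, 0.64 in LPS and 0.084 between the models, and that of all genes 0.011, 0.0058 and 0.0016. Both models were set against the same 6 controls, so their values are given side by side and their likeness is not a separate result. Levels below are CPM (counts per M counts), and changes are log2 fold changes ± SE from that test over 10 Selfox, 7 LPS and 6 Control libraries.

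**Figure D1:**
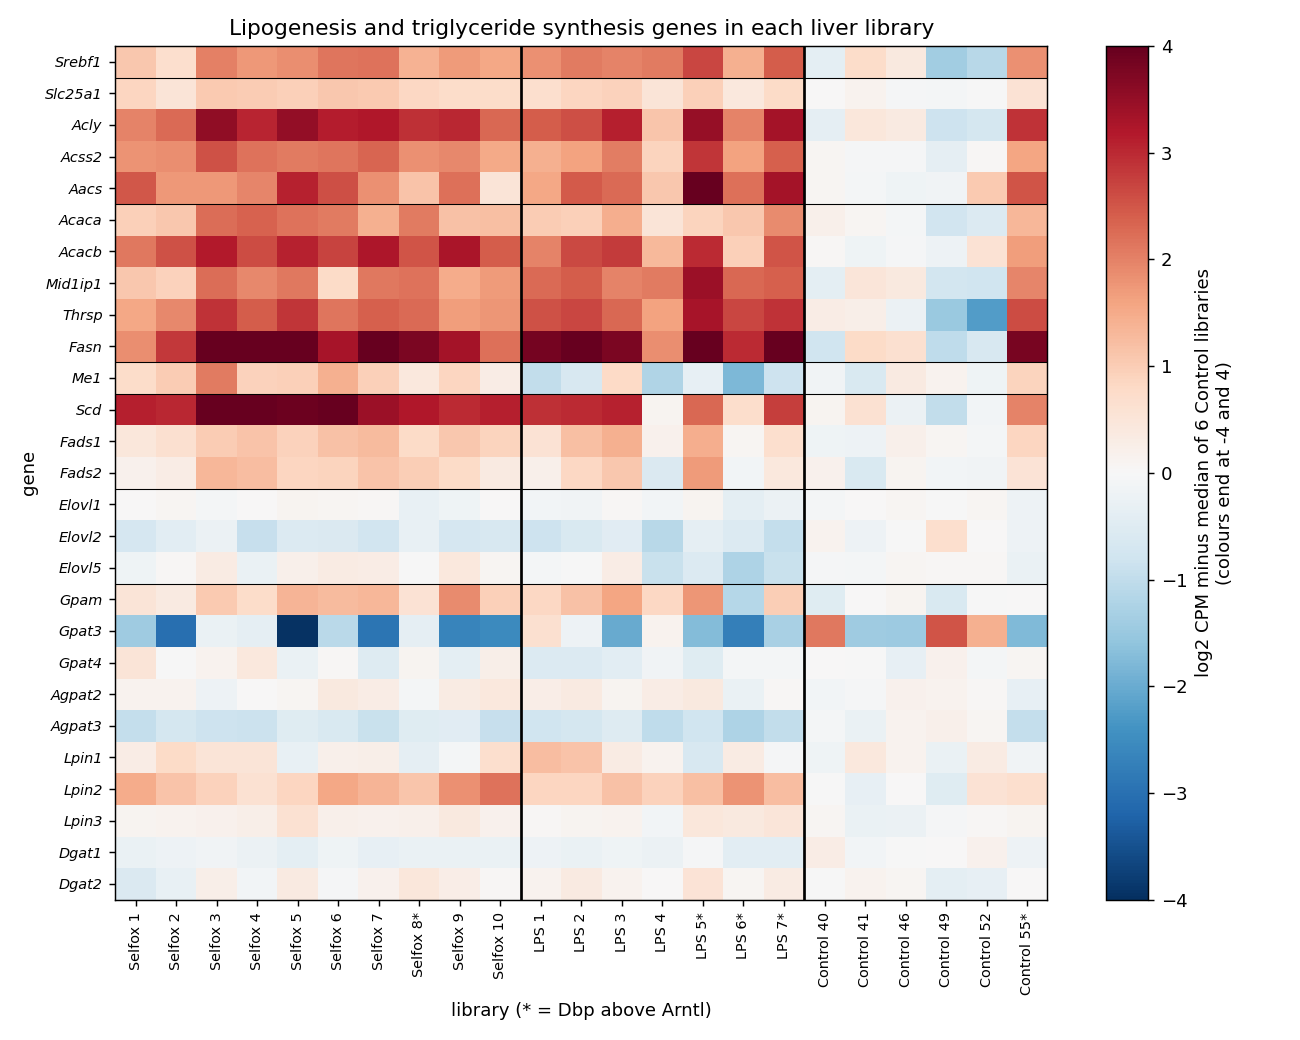
Level of each of the 27 tested genes (rows, by step of the pathway) in each library (columns, Selfox then LPS then Control), as log2 CPM minus the median of the 6 Control libraries, with colours ending at -4 and 4 and asterisks at the late-clock libraries. Red fills the rows from Srebf1 to Fasn in Selfox and LPS and also in the column of Control 55, whereas Elovl2, Agpat3 and Gpat3 are mostly blue in both models.

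**Figure D2:**
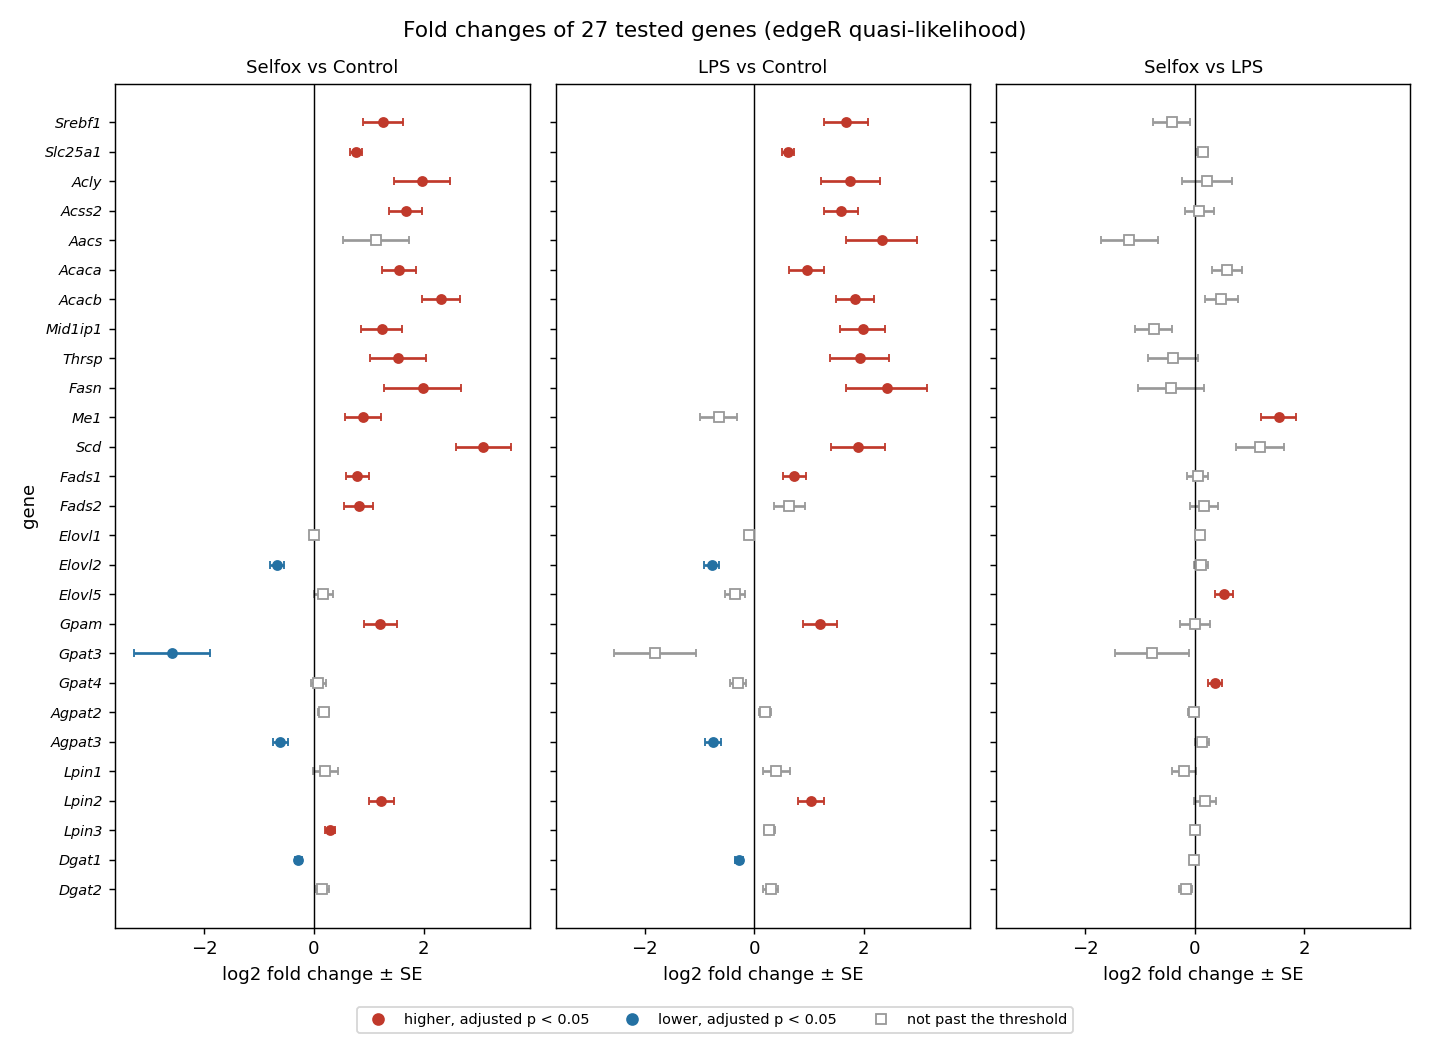
Log2 fold change with its standard error (bars) of each of the 27 genes in 3 panels, Selfox against Control, LPS against Control and Selfox against LPS; red points were higher and blue points lower at an adjusted p below 0.05, and open squares did not pass. Scd reaches 3.09 in Selfox, Gpat3 lies at -2.59, and between the models Me1 is the filled point farthest from 0 at 1.54.

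The regulator Srebf1 was higher in both models. Srebf1 lay at 196 to 563 CPM in Selfox (median 412), 334 to 789.8 CPM in LPS (median 524) and 47.5 to 442 CPM in Control (median 129). In Selfox 4 of 10 libraries and in LPS 6 of 7 were above the highest control, Control 55, which reached 442 CPM where the other controls lay at 47.5 to 205 CPM. The log2 fold change against Control was 1.26 ± 0.37 in Selfox (adjusted p = 0.014) and 1.68 ± 0.40 in LPS (adjusted p = 0.00741). Of 12 partner genes for SREBP processing and the LXR receptors, 2 rose and 2 fell in Selfox and 1 rose in LPS. In Selfox this was 16.7% each way, near the 14.2% and 14.9% of all genes tested. In LPS it was 8.33%, near the 7.71% of all genes that rose. The 2 that fell are not reported here. Insig1, itself an SREBP target that holds SREBPs in the endoplasmic reticulum, rose by 0.95 ± 0.27 in Selfox (adjusted p = 0.0106) and 1.05 ± 0.28 in LPS (adjusted p = 0.0162). Nr1h3, the LXR alpha receptor, rose by 0.31 ± 0.087 in Selfox (adjusted p = 0.00907).

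Genes of precursor supply rose in both models, 3 of 4 in Selfox and 4 of 4 in LPS. The promoters of Acly, Acss2 and Slc25a1 are shown above. Acly encodes ATP citrate lyase, which splits citrate. Its level was 518 to 1529 CPM in Selfox (median 1058), 284 to 1464 CPM in LPS (median 778) and 73.6 to 966 CPM in Control (median 135). Selfox libraries all stood above the 5 controls other than Control 55 (73.6 to 179.7 CPM), and 7 of 10 stood above Control 55 too. Acly was higher by 1.97 ± 0.52 in Selfox (adjusted p = 0.00686) and by 1.75 ± 0.53 in LPS (adjusted p = 0.0315), and the LPS call was lost in 7 of 13 fits with 1 library left out (left-out fits below). Without Control 55 the rise was 3.09 in Selfox and 2.87 in LPS.

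Acss2, the synthetase that makes acetyl-CoA from acetate, lay at 76.2 to 156 CPM in Selfox (median 108), 49.4 to 195 CPM in LPS (median 82.3) and 20.7 to 80.0 CPM in Control (median 26.7). The groups overlapped through Control 55 (80.0 CPM), with 9 of 10 Selfox and 5 of 7 LPS libraries above every control. Acss2 rose by 1.67 ± 0.30 in Selfox (adjusted p = 0.000314) and 1.59 ± 0.31 in LPS (adjusted p = 0.00193). Slc25a1, the mitochondrial citrate carrier, had a smaller rise, 0.77 ± 0.11 in Selfox (adjusted p = 2.01e-05) and 0.62 ± 0.11 in LPS (adjusted p = 0.000955), with 9 of 10 and 5 of 7 libraries above every control. Aacs activates acetoacetate for lipid synthesis. It was low in the controls, at 2.51 to 15.1 CPM in Selfox (median 6.65), 3.73 to 67.6 CPM in LPS (median 8.69) and 1.57 to 10.2 CPM in Control (median 1.77), and 1 library, LPS 5, held the highest LPS value. In Selfox Aacs stood 1.13 ± 0.60 higher without passing (adjusted p = 0.162), and without Control 55 it passed (1.86, adjusted p = 0.0275). In LPS it rose by 2.32 ± 0.65 (adjusted p = 0.0204), a call lost without LPS 5 (1.37, adjusted p = 0.0744) or Control 49, and without Control 55 it was 3.05.

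Fatty acid synthesis was the step in which 5 of 5 genes rose in Selfox and 5 of 5 in LPS. Fasn, the synthase that assembles palmitate, lay at 404 to 2339.7 CPM in Selfox (median 1319), 400.4 to 3595 CPM in LPS (median 1589.9) and 54.5 to 1550.5 CPM in Control (median 123). Both models overlapped the controls only through Control 55, at 1550.5 CPM, since the other 5 controls lay at 54.5 to 191 CPM. The rise of Fasn was 1.98 ± 0.70 in Selfox (adjusted p = 0.037) and 2.41 ± 0.74 in LPS (adjusted p = 0.0327), calls lost in 9 of 16 and 7 of 13 left-out fits. Without Control 55 it was 3.64 in Selfox (adjusted p = 0.0001) and 4.08 in LPS (adjusted p = 0.000143).

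Acetyl-CoA carboxylase makes malonyl-CoA in a cytosolic form (Acaca) and a mitochondrial form (Acacb); malonyl-CoA from the mitochondrial form is known to restrain fatty acid oxidation. Acacb was at 84.3 to 189 CPM in Selfox (median 124), 38.0 to 156 CPM in LPS (median 112) and 16.9 to 62.8 CPM in Control (median 19.5). It was 1 of the 4 genes in which Selfox and Control did not overlap, and it rose by 2.32 ± 0.34 in Selfox (adjusted p = 5.59e-05) and 1.83 ± 0.35 in LPS (adjusted p = 0.00156). Acaca lay at 133 to 346 CPM in Selfox (median 234), 98.0 to 251 CPM in LPS (median 137) and 40.3 to 171 CPM in Control (median 68.1), and 6 of 10 Selfox libraries were above every control, against 2 of 7 LPS libraries. Its rise was 1.56 ± 0.31 in Selfox (adjusted p = 0.000761). In LPS it was 0.96 ± 0.32 (adjusted p = 0.0445), a call lost in 11 of 13 left-out fits.

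Mid1ip1 and Thrsp encode a pair of related proteins known from lipogenesis, and that of Mid1ip1 is known to help acetyl-CoA carboxylase polymerize. Mid1ip1 was at 29.3 to 81.8 CPM in Selfox (median 61.4), 68.8 to 185 CPM in LPS (median 85.5) and 9.95 to 67.4 CPM in Control (median 18.1). In Selfox 4 of 10 libraries were above every control, and in LPS all 7 were. The rise was 1.24 ± 0.37 in Selfox (adjusted p = 0.0165) and 1.98 ± 0.40 in LPS (adjusted p = 0.00282), and Selfox stood at -0.74 ± 0.34 relative to LPS without passing (adjusted p = 0.148; it passed with the 2 groups fitted alone, at 0.049). Thrsp was at 613 to 1561 CPM in Selfox (median 976), 652 to 2065 CPM in LPS (median 1341) and 44.7 to 1286 CPM in Control (median 214), the highest control again being Control 55 (1286 CPM against 44.7 to 258 CPM). Thrsp rose by 1.53 ± 0.51 in Selfox (adjusted p = 0.027, lost without Control 40, 41, 46 or 49) and 1.92 ± 0.54 in LPS (adjusted p = 0.0208, lost without Control 46). Without Control 55 Mid1ip1 was at 1.85 in Selfox and 2.59 in LPS, and Thrsp at 2.65 in Selfox and 3.03 in LPS.

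In NADPH supply, the 1 gene of the list with a row differed between the models. Me1, the cytosolic malic enzyme that yields NADPH, was at 94.0 to 326 CPM in Selfox (median 147), 22.0 to 134 CPM in LPS (median 42.9) and 50.4 to 142 CPM in Control (median 77.2). Selfox libraries were high, and 7 of 10 were above every LPS library, of which LPS 3 alone (134 CPM) stood among the Selfox values. Me1 was higher in Selfox than in LPS by 1.54 ± 0.32 (2.91-fold, adjusted p = 0.00255), a call kept in all 17 fits that left out 1 library and, at 1.37, without the late-clock libraries (adjusted p = 0.0292). Against Control it rose by 0.89 ± 0.33 in Selfox (adjusted p = 0.0454, lost in 11 of 16 left-out fits) and stood at -0.65 ± 0.34 in LPS (adjusted p = 0.213), where it passed as lower without LPS 3 (-1.05, adjusted p = 0.0198).

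Of 8 other genes listed for NADPH supply 7 rose in Selfox and 5 in LPS. Between the models 2 were higher in Selfox than in LPS (1 without the late-clock libraries). Not all of the 8 make NADPH themselves, since the list also holds pentose phosphate genes such as Tkt that do not. Aldh1l1, a folate enzyme that yields NADPH, rose by 1.63 ± 0.16 in Selfox (adjusted p = 3.94e-07) and 0.82 ± 0.16 in LPS (adjusted p = 0.00184), and was higher in Selfox than in LPS by 0.81 ± 0.14 (adjusted p = 0.000561). Tkt, the transketolase, rose by 0.93 ± 0.18 in Selfox (adjusted p = 0.000605) and 0.84 ± 0.19 in LPS (adjusted p = 0.00533). The highest control for Tkt was Control 55 (231 CPM, others 101 to 135 CPM).

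Among the desaturases 3 of 3 rose in Selfox and 2 of 3 in LPS. Scd, the stearoyl-CoA desaturase that makes oleate, lay at 7473 to 22461 CPM in Selfox (median 9374), 1001 to 7888 CPM in LPS (median 6383) and 474 to 3718 CPM in Control (median 939.9). Every Selfox library exceeded every control, Control 55 (3718 CPM) included, and in LPS 5 of 7 did, with LPS 4 lowest at 1001 CPM. Scd rose by 3.09 ± 0.50 in Selfox (8.51-fold, adjusted p = 0.000154) and 1.90 ± 0.49 in LPS (3.72-fold, adjusted p = 0.0136), and without Control 55 by 3.69 in Selfox and 2.49 in LPS. Selfox stood 1.19 ± 0.43 above LPS without passing (adjusted p = 0.0677; it passed by DESeq2, at 0.0318, and with the 2 groups fitted alone, at 0.0459), and 8 of 10 Selfox libraries were above every LPS library. Fads1 and Fads2, the delta-5 and delta-6 desaturases of polyunsaturated fatty acids, showed smaller differences. Fads1 rose by 0.79 ± 0.20 in Selfox (adjusted p = 0.00559) and 0.73 ± 0.22 in LPS (adjusted p = 0.0252, lost in 7 of 13 left-out fits), and Fads2 rose by 0.82 ± 0.27 in Selfox (adjusted p = 0.0257, lost without Control 41, 49 or 52) and stood at 0.64 ± 0.28 in LPS (adjusted p = 0.134).

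Of the 3 elongase genes tested, 1 fell in both models. Elovl2, which lengthens polyunsaturated chains, fell in both models: 54.2 to 89.1 CPM in Selfox (median 68.3), 47.9 to 81.5 CPM in LPS (median 67.4) and 90.5 to 166 CPM in Control (median 104). No library of either model reached the lowest control. Elovl2 fell by 0.67 ± 0.13 in Selfox (adjusted p = 0.000573) and 0.78 ± 0.14 in LPS (adjusted p = 0.000977). Elovl5, a second polyunsaturated chain elongase, was higher in Selfox than in LPS by 0.53 ± 0.16 (adjusted p = 0.0314), at 186 to 299 CPM in Selfox (median 245), 93.6 to 271 CPM in LPS (median 152) and 184 to 236 CPM in Control (median 223); the call was lost in 7 of 17 left-out fits and without the late-clock libraries (0.27, adjusted p = 0.289), and without LPS 3 Elovl5 passed as lower in LPS against Control (-0.51, adjusted p = 0.0444). Elovl1, of very long saturated chains, passed in no comparison, with log2 fold changes of 0.0077 in Selfox and -0.091 in LPS against Control. Elovl6, which extends palmitate and is a known SREBP-1c target in mouse liver, had 0 to 2 counts in each of the 23 libraries, and Elovl3 0 to 1. The annotation used for counting is not given, and whether the Elovl6 row covers the transcribed exons was not tested. These counts therefore do not show that Elovl6 is silent in these livers. Of 10 other elongation and desaturation genes tested, 3 rose in Selfox and 2 in LPS. Cyb5r3, the cytochrome b5 reductase that feeds electrons to desaturases, rose by 0.92 ± 0.12 in Selfox (adjusted p = 1.59e-05) and 0.52 ± 0.13 in LPS (adjusted p = 0.00966). Fads3, a desaturase family member, rose by 0.87 ± 0.16 in Selfox (adjusted p = 0.00039) and 0.70 ± 0.17 in LPS (adjusted p = 0.00844).

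**Figure D3:**
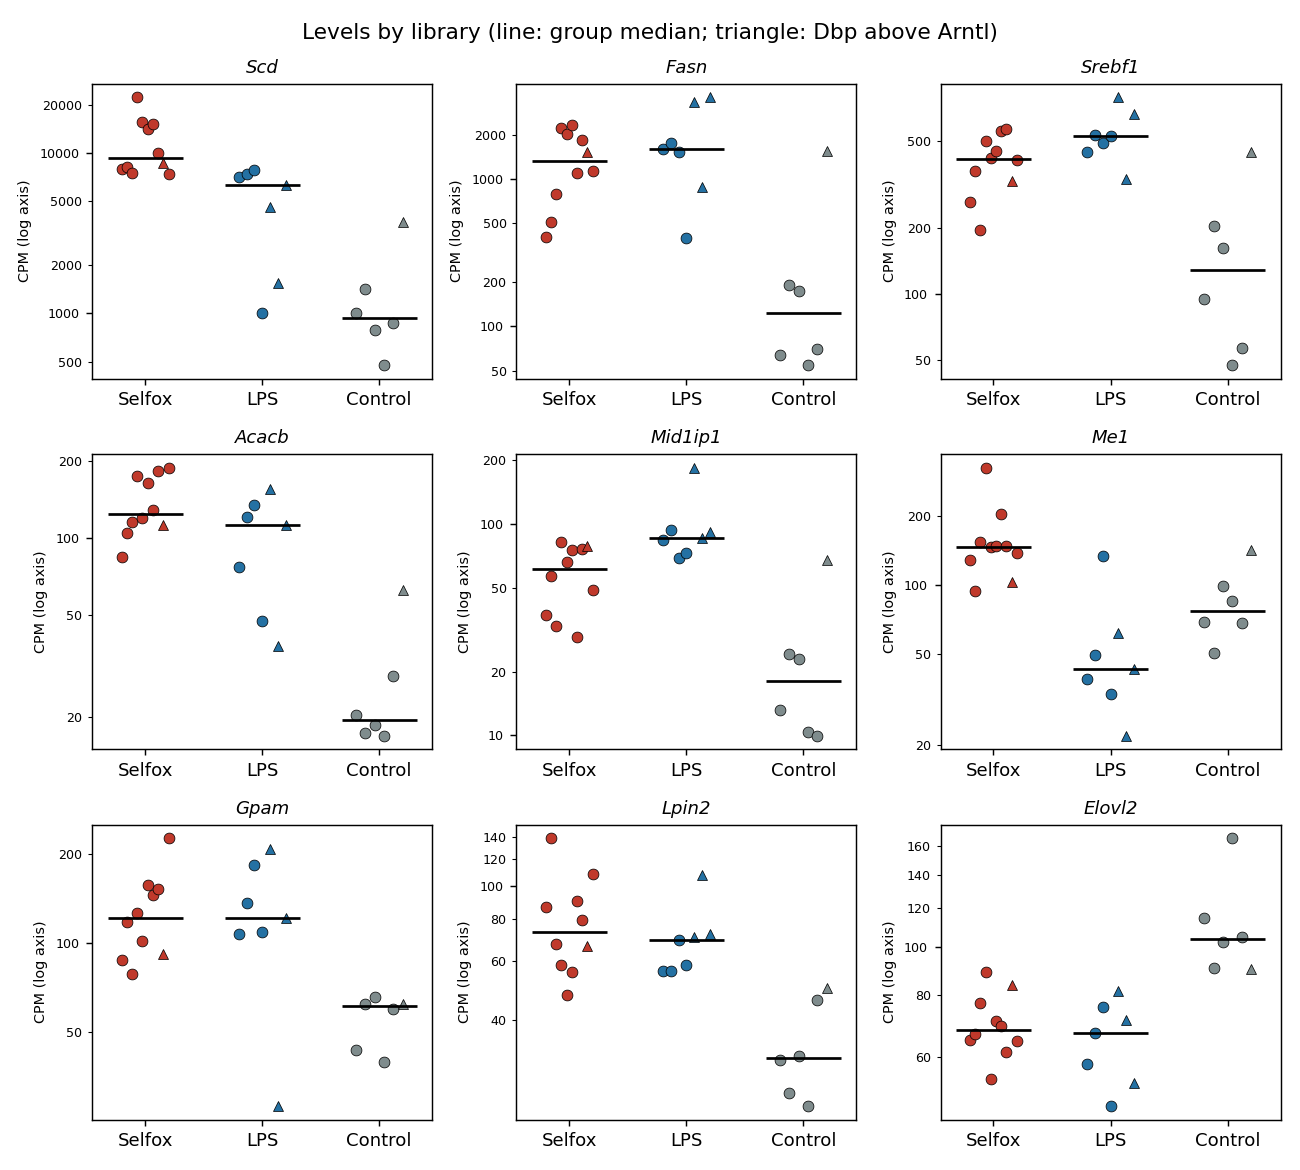
CPM of 9 genes in each library (points, log axis) for Selfox, LPS and Control, with the group median as a line and the late-clock libraries as triangles. The single triangle among the controls, Control 55, is the highest control for Scd, Fasn, Srebf1, Acacb, Mid1ip1, Me1 and Lpin2, and in Elovl2 both models lie below every control.

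Glycerolipid synthesis gave 3 rises and 3 falls among 10 tested genes in Selfox and 2 of each in LPS. The first step, acylation of glycerol 3-phosphate, split between its isoenzymes. Gpam, the mitochondrial form and a known SREBP-1c target, lay at 78.6 to 227 CPM in Selfox (median 122), 27.9 to 208 CPM in LPS (median 121) and 39.5 to 65.6 CPM in Control (median 60.9). Selfox and Control did not overlap, whereas LPS 6 (27.9 CPM) fell below every control and the other 6 LPS libraries lay above. Gpam rose by 1.22 ± 0.30 in Selfox (adjusted p = 0.004) and 1.20 ± 0.31 in LPS (adjusted p = 0.0132). Gpat3, an isoenzyme of the endoplasmic reticulum, was scarce, at 0.162 to 2.49 CPM in Selfox (median 0.784), 0.420 to 4.63 CPM in LPS (median 1.20) and 0.849 to 17.1 CPM in Control (median 4.55). The controls themselves spanned a wide range, and 5 of 10 Selfox libraries were below all of them. Gpat3 fell by 2.59 ± 0.69 in Selfox (adjusted p = 0.0075) and stood at -1.81 ± 0.75 in LPS (adjusted p = 0.11). Gpat4, the third isoenzyme, had 62.6 to 129 CPM in Selfox (median 96.1), 61.3 to 85.7 CPM in LPS (median 67.0) and 71.6 to 101 CPM in Control (median 90.3). It was higher in Selfox than in LPS by 0.38 ± 0.13 (adjusted p = 0.0474), a call lost in 11 of 17 left-out fits.

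Of the acyltransferases of the second step, Agpat3 fell by 0.61 ± 0.13 in Selfox (adjusted p = 0.00159) and 0.75 ± 0.15 in LPS (adjusted p = 0.00158), and Agpat2 stood at 0.18 ± 0.10 in Selfox and 0.20 ± 0.11 in LPS without passing. Lipins remove the phosphate from phosphatidic acid to give diacylglycerol. Lpin2, a liver lipin, lay at 47.6 to 139 CPM in Selfox (median 73.4), 55.9 to 108 CPM in LPS (median 69.2) and 22.2 to 49.8 CPM in Control (median 30.9). Above every control stood 9 of 10 Selfox libraries and all 7 LPS libraries. Lpin2 rose by 1.23 ± 0.23 in Selfox (adjusted p = 0.000414) and 1.04 ± 0.24 in LPS (adjusted p = 0.00582). Lpin3 rose by 0.29 ± 0.093 in Selfox (adjusted p = 0.0213, lost without Control 41) and stood at 0.28 ± 0.10 in LPS (adjusted p = 0.0636; it passed without Control 55, at 0.0437, or LPS 4, at 0.0273), while Lpin1 passed in no comparison (0.21 in Selfox, 0.41 in LPS).

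In the last step, from diacylglycerol to triglyceride, neither gene was called higher. Dgat1 fell by 0.28 ± 0.068 in Selfox (adjusted p = 0.00302) and 0.27 ± 0.073 in LPS (adjusted p = 0.0152). Dgat2, the form tied to newly made fatty acids, had 206 to 421 CPM in Selfox (median 334), 316 to 449 CPM in LPS (median 345) and 238 to 341 CPM in Control (median 309), with log2 fold changes of 0.14 ± 0.13 in Selfox (adjusted p = 0.427) and 0.30 ± 0.14 in LPS (adjusted p = 0.136) that did not pass. Mogat2, an acyltransferase of monoacylglycerol known from the intestine, reached at most 0.256 CPM in any library. Of 9 other glycerolipid genes tested, 1 rose and 3 fell in Selfox, and 1 rose and 1 fell in LPS. Gpd1, which makes glycerol 3-phosphate, rose by 0.82 ± 0.26 in Selfox (adjusted p = 0.0225) and 1.08 ± 0.28 in LPS (adjusted p = 0.0136). For Gpd1 Control 55 lay at 1504 CPM and the other controls at 356 to 483 CPM, while the highest Selfox library reached 1526 CPM. Plpp2, a lipid phosphate phosphatase, fell by 0.59 ± 0.14 in Selfox (adjusted p = 0.00268).

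Genes that bring sugar into the pathway rose in part, 5 of 8 in each model. Pklr, the liver pyruvate kinase, lay at 321 to 1193 CPM in Selfox (median 715), 193 to 972 CPM in LPS (median 708) and 54.0 to 776 CPM in Control (median 118). The ranges of all 3 groups overlapped through Control 55, the highest control, since the other controls lay at 149 CPM or below, and it stood 1.70 ± 0.51 higher in Selfox (adjusted p = 0.0155) and 1.68 ± 0.53 in LPS (adjusted p = 0.0375), a gene chosen here after its values were seen. Tkfc, a kinase of fructose breakdown, rose by 1.25 ± 0.26 in Selfox (adjusted p = 0.00129) and 1.04 ± 0.28 in LPS (adjusted p = 0.015). Khk, the ketohexokinase, rose by 0.64 ± 0.13 in Selfox (adjusted p = 0.000726), and Slc2a2, the liver glucose transporter, by 0.67 ± 0.14 in LPS (adjusted p = 0.00369). Control 55 was the highest control for Tkfc (461 CPM, others 90.6 to 171 CPM). It was also the highest for Khk (236 CPM, others 119 to 159 CPM) and Slc2a2 (543 CPM, others 224 to 430 CPM).

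Fatty acid activation, insulin signalling and AMPK were counted beside these. Of 7 acyl-CoA synthetase and binding genes 3 rose and 2 fell in Selfox and 2 rose in LPS, among them Dbi, the acyl-CoA binding protein (0.93 ± 0.19 in Selfox, adjusted p = 0.000728, and 0.65 ± 0.19 in LPS, adjusted p = 0.0268) and the synthetase gene Acsl5 (1.03 ± 0.25 in Selfox, adjusted p = 0.00383, and 1.08 ± 0.27 in LPS, adjusted p = 0.0093). Acsl3, another synthetase gene, rose by 0.97 ± 0.15 in Selfox (adjusted p = 8.53e-05) and stood at 0.43 ± 0.16 in LPS (adjusted p = 0.0684). Control 55 was the highest control for Acsl5 (301 CPM, others 116 to 228 CPM) and Acsl3 (23.7 CPM, others 13.7 to 20.3 CPM). Of 6 insulin signalling genes 1 rose and 1 fell in Selfox and 1 rose in LPS. Each was 16.7% of the list, where 14.2% of all genes rose and 14.9% fell in Selfox and 7.71% rose in LPS. Insr, the insulin receptor, rose by 0.31 ± 0.056 in Selfox (adjusted p = 0.00031) and 0.41 ± 0.060 in LPS (adjusted p = 0.000217), and Foxo1, a transcription factor that insulin signalling restrains, fell by 0.33 ± 0.12 in Selfox (adjusted p = 0.0433). Of 6 subunits of AMPK, the kinase that inhibits acetyl-CoA carboxylase, 2 rose and 1 fell in Selfox, and 0 passed in LPS. Prkab1 was the 1 that fell, by 0.57 ± 0.12 (adjusted p = 0.000937), and the 2 that rose are not reported here.

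Fasting genes gave 2 rises and 2 falls of 9 in Selfox and 1 and 2 in LPS. Cpt1a, which brings fatty acids into mitochondria for oxidation, fell by 1.20 ± 0.20 in Selfox (adjusted p = 0.000141) and 0.78 ± 0.22 in LPS (adjusted p = 0.0185). G6pc, the glucose 6-phosphatase of glucose output, rose by 0.73 ± 0.20 in Selfox (adjusted p = 0.00774) and 0.63 ± 0.21 in LPS (adjusted p = 0.0469). The highest control for G6pc was Control 55 (2246 CPM, others 819 to 1413 CPM). Clock genes gave 2 rises and 4 falls of 15 in Selfox, 2 rises in LPS, and 7 falls in Selfox relative to LPS, where Selfox held 1 and LPS 3 of the late-clock libraries.

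Several differences were larger without the late-clock libraries. Without them, Selfox (9 libraries) against Control (5) gave 17 genes higher and 4 lower, where 16.2% of all genes were higher and 16.1% lower. LPS (4 libraries) against Control gave 14 and 3, with 7.63% and 6.86%. All 20 genes called in Selfox and all 17 called in LPS with every library were still called. Between the models Me1 alone was called, against 4.55% of all genes higher and 4.86% lower. The rise of Fasn was then 3.63 in Selfox and 3.56 in LPS, that of Acly 3.09 in Selfox and 2.57 in LPS, that of Thrsp 2.65 in Selfox and 2.72 in LPS, and that of Scd 3.73 in Selfox and 2.68 in LPS. Srebf1 stood at 1.86 in Selfox and 2.12 in LPS. Aacs then passed in Selfox (1.94, adjusted p = 0.000994) as it did in LPS (1.71, adjusted p = 0.012). Of the other genes listed for NADPH supply 6 rose in Selfox and 4 in LPS without these libraries, and of those for sugar entry 6 and 5.

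**Figure D4:**
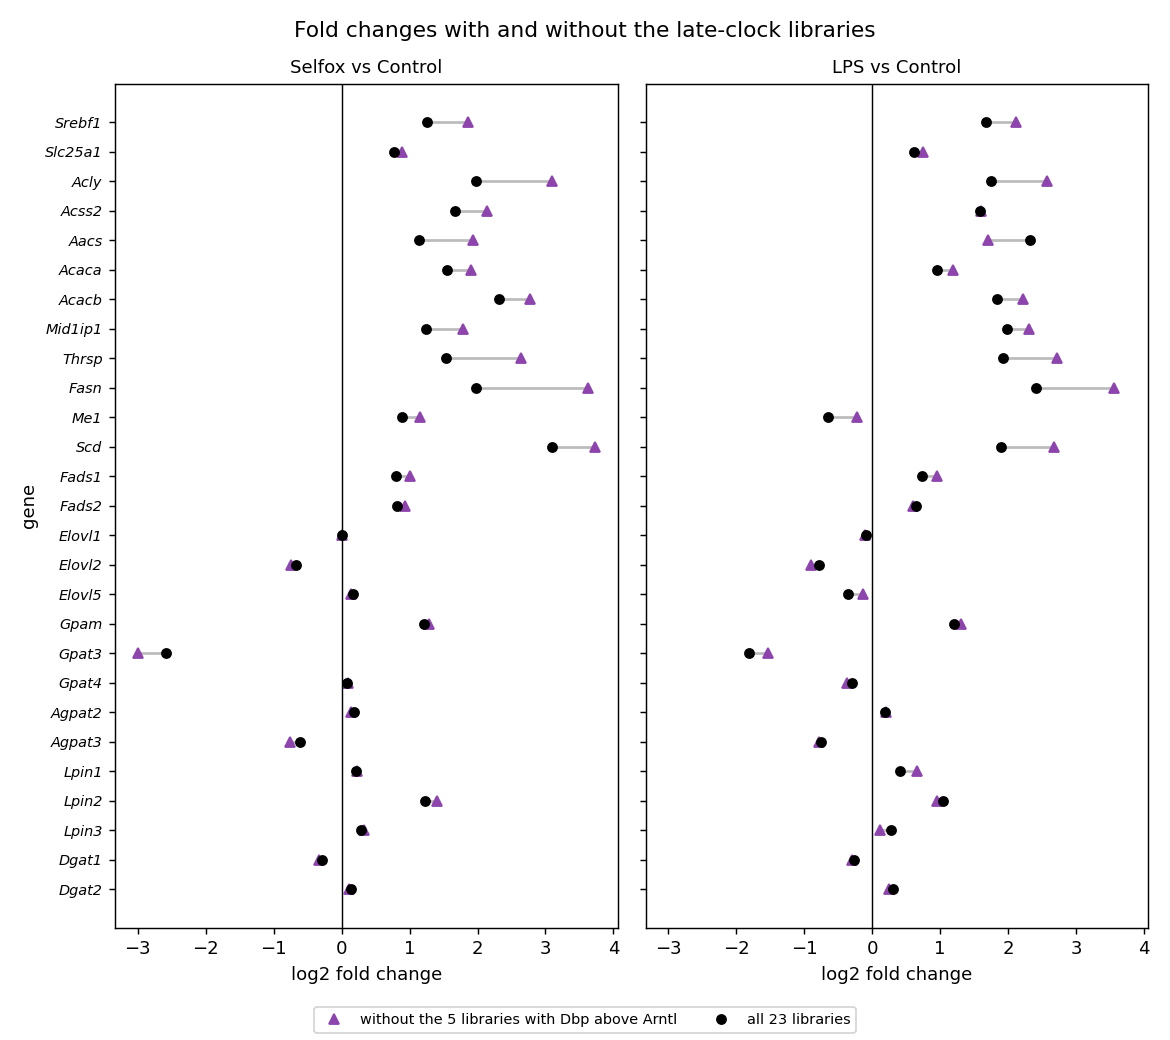
Log2 fold change of each of the 27 genes with all libraries (circles) and without the 5 late-clock libraries (triangles), for Selfox against Control and LPS against Control (x axis, log2 scale; grey lines join the 2 values of a gene). Fasn in Selfox lies at 3.63 without them and at 1.98 with all libraries, while Dgat1 lies at -0.33 and -0.28.

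Overlap between libraries was counted too. With all libraries, 4 genes had every Selfox library outside the control range (Acacb, Elovl2, Scd and Gpam; 4.91% of all genes tested), 3 had every LPS library outside it (Mid1ip1, Elovl2 and Lpin2; 3.64%) and 0 separated Selfox from LPS (1.74%). Without the late-clock libraries 14 genes lay above and 3 below every control in Selfox, against 5.51% and 5.53% of all genes. In LPS 12 lay above and 3 below, against 8.23% and 7.77%. Fasn then lay at 404 to 2339.7 CPM in Selfox, 400.4 to 1754 CPM in LPS and 54.5 to 191 CPM in Control. The 3 below were Agpat3, Dgat1 and Elovl2 in both models, which were set against the same 5 controls.

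Taking the 27 genes of each library by their median relative to the Control median, the Selfox libraries lay at 0.527 to 1.14, the LPS libraries at 0.178 to 1.09 and the Control libraries at -0.125 to 0.584 in log2 CPM. Control 55 was the top control at 0.58, and the other 5 lay between -0.13 and 0.074. Each control is itself part of that median, which narrows the range of the controls. Against the mean of the controls other than the library itself, the Control libraries lay at -0.36 (Control 49) to 0.66 (Control 55). On that measure the LPS libraries lay at 0.11 to 1.09 and the Selfox libraries at 0.54 to 1.15. The lowest LPS value belonged to LPS 4, a library that is not late-clock and was the lowest of its group for 11 of the 27 genes. Within Selfox, Selfox 1 was the lowest for 10 genes and Selfox 3 the highest for 10, and within LPS, LPS 5 was the highest for 16.

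**Figure D5:**
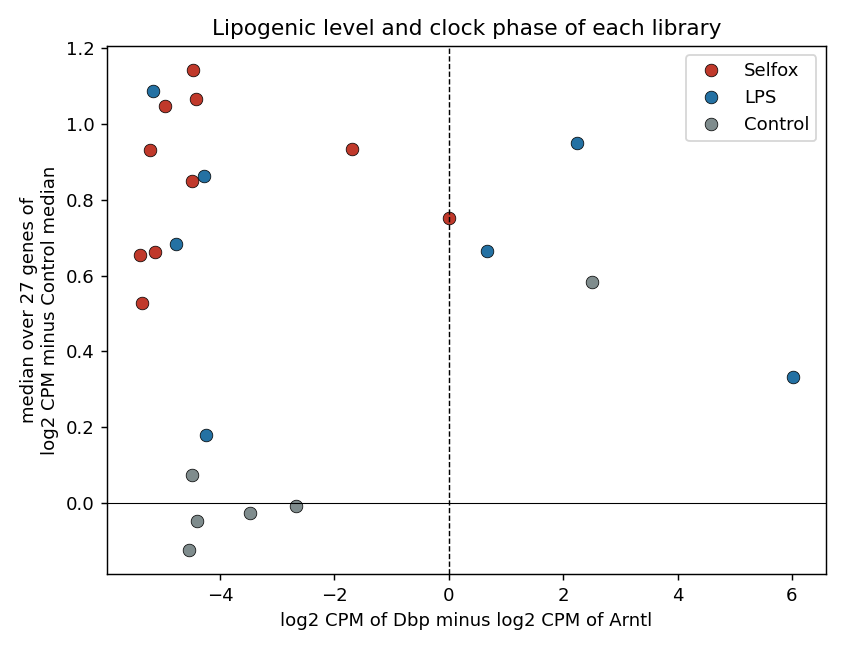
Each library by clock phase (x axis, log2 CPM of Dbp minus that of Arntl, dashed line at 0) and by the median of the 27 genes relative to the Control median (y axis, log2 CPM), coloured by group. The Control library right of the line is Control 55, at 0.58 on the y axis, and the other 5 controls lie left of the line, at -0.13 to 0.074.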

How the data were processed

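RNA of whole liver was made into libraries with a kit that marks strand, per the labels' protocols. The deposited values of the 23 libraries are whole-number read counts per gene. Per the submitters' processing notes, the authors used FastQC, Trim Galore, STAR 2.7.9a and featureCounts of Subread 2.0.3, with genome build, annotation and strand setting not given in the sources used here; reads of overlapping or antisense genes may be mixed. Genes were kept by filterByExpr of edgeR 4.0.16 (minimum count 10, R 4.3.3), scaled by TMM and fitted for all 3 groups together. Comparisons used the quasi-likelihood test of edgeR, adjusted by Benjamini-Hochberg over 15079 genes (threshold 0.05), after it was checked on simulated data. Standard errors come from the log2 fold change and its F value. CPM used TMM-scaled library sizes, and log2 CPM a prior count of 2. Even numbers made up 66.1% to 74.9% of counts from 1 to 9, so counts divided by 2 were also run. Genes past the threshold with a log2 fold change of at least 1 in size are given in full; from each partner, fasting and clock list up to 3 were named by adjusted p, and some genes that this rule names are not reported here. Members and lists were chosen with earlier results of these data known. Alternatives included DESeq2 1.42.0 and limma 3.58.1. Promoters are from RefSeq, GRCr8.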

Additional observations from a re-analysis of the deposited data

Results flagged for a closer look

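In 7 of 81 gene and group combinations (27 genes, 3 groups) 1 library stood so far from the rest of its group that its gap to the nearest library exceeded the 95% limit of Dixon's test; chance flags about 1 in 20. Control 55 gave 4 of them, each as the highest control: Fasn at 10.6 log2 CPM with the next control at 7.57, Acly at 9.92 with the next at 7.49, Acss2 at 6.32 with the next at 4.81, and Slc25a1 at 6.77 with the next at 6.33. LPS 6 gave 2, the lowest Gpam of LPS at 4.80 log2 CPM (next library 6.74) and the highest Lpin2 at 6.76 (next library 6.18). LPS 5 held the highest Mid1ip1 at 7.53 log2 CPM (next library 6.55). All 3 are late-clock libraries, and without those the calls of these 7 genes against Control were kept in both models.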

How the results depend on the processing

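With RLE or upper-quartile factors, a minimum count of 50, DESeq2, limma voom, counts thinned to 31.9 M per library or counts divided by 2, the numbers of genes higher and lower against Control were 16 and 4 in Selfox and 14 and 3 in LPS, as reported; without a filter 14 and 11 were higher. The limma fit, which weights libraries, put Fasn at 3.22 in Selfox and 3.61 in LPS on the log2 scale. Without a filter the calls of Fasn and Me1 in Selfox and of Acly, Fasn and Acaca in LPS were lost. Fitted as 2 groups alone, Fasn and Thrsp lost their call in Selfox, 7 genes were higher in LPS against Control (Acly, Aacs, Fasn, Acaca, Thrsp, Scd and Fads1 were lost), and 1 (Mid1ip1) was lower in Selfox against LPS. Genes higher in Selfox against LPS fell to 1 without the late-clock libraries, to 1 with a block for the replicate number that 7 pairs of Selfox and LPS libraries share, and to 1 in the same 14 libraries with no replicate block. The numbers do not pair the libraries (correlations -0.064 to 0.18; 1 of 7 LPS libraries was closest to its own number). With each library left out in turn, 11 to 17 genes were higher and 4 to 4 lower in Selfox against Control, 9 (without Control 49 or LPS 5) to 15 higher and 3 to 5 (without LPS 3) lower in LPS against Control, and 1 (without LPS 5, Selfox 3 or Selfox 6) to 3 higher and 0 to 0 lower in Selfox against LPS. In every left-out fit 15 of 20, 11 of 17 and 1 of 3 calls remained. The cause of these losses was not tested. Of 2106 gene values under these settings 1993 stayed on the same side of the threshold, 104 lost and 9 gained a call. No called value changed direction. Some values that passed in neither fit changed sign, such as Aacs between Selfox and LPS (-1.19, and 0.23 without the late-clock libraries). Partner list counts without Control 55 or the late-clock libraries were chosen after seeing the data: without Control 55, 3 of the 12 genes listed for SREBP processing and LXR rose in LPS.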
